A study of Rattus norvegicus with 20 samples.

Results

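The microRNAs (miRNAs) rno-miR-132-3p and rno-miR-212-3p are 2 of the 719 rat miRNAs measured on kidney arrays. They were taken by name, as a pair known from one transcript and sharing one seed. They were also chosen by their values on these arrays, namely their detection, levels and differences between vehicle and the days of treatment. Their levels and their differences between groups are therefore descriptions, and no test is given for either of them. Of the pair, 1 was detected on every array (miR-212-3p) and the other on 15 of 20 (miR-132-3p).

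Kidneys came from male Wistar rats of 80 to 100 g body weight. Aristolochic acid I (AAI), a plant acid that damages DNA and injures the kidney, was given at 40 mg per kg by the intraperitoneal route, and kidneys were collected on day 2, day 4 or day 6. Control rats received the vehicle alone, PEG400 mixed with water in equal parts, and their arrays are from day 6. Vehicle kidneys of day 2 or day 4 were not analysed here, so the AAI day 2 and day 4 groups were set against vehicle of a later day. Each of the 4 groups held 5 kidneys with 1 Cy3 array each. The labels do not say whether the kidneys of a group came from separate animals, nor how many injections preceded a collection. The spread and the p-values then measure only the variation between these samples, which may be technical. A whole kidney is a mixture of cell types, so fewer cells of a type and less RNA per cell cannot be told apart.

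As background, a miRNA guides the silencing complex to messenger RNAs that pair with its seed, the bases near its 5′ end. miR-132 and miR-212 are cut from neighbouring hairpins of one primary transcript. Its transcription is known, mainly from neurons, to be driven by the cyclic AMP response element binding protein CREB, and the pair is also known from heart and vessel remodelling. CREB activity and the primary transcript were not measured by these arrays, so the description of the pair as CREB-responsive could not be checked here.

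The mature sequences are shown because the members share the seed and differ only in bases after it, and the array probes read mainly those later bases. They are from RefSeq (GRCr8), written 5′ to 3′ with the seed, bases 2 to 8, in capitals. miR-132-3p lies at chr10:60522091-60522112 and miR-212-3p at chr10:60521811-60521832, both on the plus strand, with starts 280 bases apart.

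miR-132-3p: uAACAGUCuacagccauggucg

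miR-212-3p: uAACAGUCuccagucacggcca

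Both are 22 bases long, with 17 identical bases. The 5 differences, counted from the 5′ end with the miR-132-3p base first, are A10C, C14U, U17C, U20C and G22A, and all lie after the seed. No other array miRNA carried this seed (0 beside the pair, among the 641 array miRNAs named in the RefSeq table).

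The probes decide whether the members can be read apart, so they are shown as well. Each miRNA had 2 probes, DNA complementary to its 3′ part, at rn4 coordinates given by the deposited files. The longer miR-132-3p probe (chr10:62480791-62480806) covered bases 7 to 22 of the miRNA and the shorter one (chr10:62480792-62480806) bases 8 to 22. The miR-212-3p probes covered bases 9 to 22 (chr10:62480513-62480526) and 10 to 22 (chr10:62480514-62480526). Neither set covered the whole seed.

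miR-132-3p, longer probe: cgaccatggctgtaga

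miR-132-3p, shorter probe: cgaccatggctgtag

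miR-212-3p, longer probe: tggccgtgactgga

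miR-212-3p, shorter probe: tggccgtgactgg

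Each of these probes had 5 mismatches to the other member of the pair. For the miR-132-3p probes that was the nearest other miRNA. For the miR-212-3p probes the nearest was miR-382-3p, with 3 mismatches to the shorter and 4 to the longer probe. Cross-hybridization itself was not tested.

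Detection differed between the members. The scanner software called miR-132-3p detected on 2 of 5 vehicle, 4 of 5 AAI day 2, 4 of 5 AAI day 4 and 5 of 5 AAI day 6 arrays. It called miR-212-3p detected on all 5 arrays of every group. Over all miRNAs, vehicle arrays had 258 to 269 detected. Arrays of AAI days 2, 4 and 6 had 261 to 289, 269 to 328 and 250 to 308. The part of array brightness in the detection of miR-132-3p was not tested. Only miRNAs found on every array of 1 or more groups entered the fit over all miRNAs. miR-132-3p met that rule only through AAI day 6, the group in which its level was highest, while miR-212-3p met it in all 4 groups. The opposite arms of both hairpins, miR-132-5p and miR-212-5p, were detected on 0 of 20 arrays, so only the 3p arms gave values.

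miR-132-3p lay near the limit of the arrays. Its signal, the background-subtracted spot intensity summed over its probes in arbitrary units, was 10.6 to 57.3 on the 15 arrays where it was detected and 6.81 to 12.0 on the 5 where it was not. These ranges overlap, so the detection call did not separate high from low signals cleanly. On 5 arrays none of its 20 spots was well above background, and on only 3 arrays were at least 10 of them. The standard error over spots was 2.28% to 10.4% of its signal (median 6.20%). For miR-212-3p it was 0.991% to 2.79% (median 1.69%), and all 20 spots were well above background on every array.

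The miR-132-3p signal on vehicle arrays 1 to 5 was 6.81, 10.4, 23.9, 8.86 and 10.6. On AAI day 2 arrays 1 to 5 it was 12.0, 20.1, 21.1, 12.5 and 16.7. Vehicle array 3 lay above every day 2 array, and the other 4 vehicle arrays lay below all of them. On AAI day 4 arrays 1 to 5 the signal was 9.43, 13.3, 17.3, 14.3 and 24.7. On AAI day 6 arrays 1 to 5 it was 57.3, 11.8, 19.3, 16.9 and 30.8. AAI day 6 array 1 had the highest miR-132-3p signal of all 20 arrays and array 5 of that group the next, while the other 3 day 6 arrays lay within the vehicle range.

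Signals were divided by the 75th percentile signal of their array and put on the log2 scale, and this value is called the level. The miR-132-3p level of vehicle kidneys was -5.05 ± 0.48 (SD, n = 5). In AAI kidneys it was -4.80 ± 0.26 on day 2, -4.96 ± 0.41 on day 4 and -4.34 ± 0.72 on day 6. The order from low to high was vehicle, day 4, day 2 and day 6, and no neighbours in it differed by more than the SD within groups, 0.50. The number of AAI arrays above the highest vehicle array was 0 of 5 at day 2, 0 of 5 at day 4 and 2 of 5 at day 6. All 5 day 6 arrays lay above the vehicle mean, against 4 at day 2 and 3 at day 4.

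The miR-212-3p signal on vehicle arrays 1 to 5 was 141.1, 182.1, 211.1, 159.8 and 146.7. On AAI day 2 arrays 1 to 5 it was 228.3, 166.8, 282.2, 232 and 239.8, with array 2 alone inside the vehicle range. On AAI day 4 arrays 1 to 5 it was 243.4, 222.6, 278.3, 295 and 324.8, all above the highest vehicle array. The AAI day 6 arrays 1 to 5 read 271.6, 260.9, 518.3, 343.4 and 344, again all above it, and array 3 was the highest of all 20. Before scaling, then, the miR-212-3p signals of day 4 and of day 6 did not overlap those of vehicle. Among all 262 miRNAs tested, 7.63% at day 4 and 8.02% at day 6 were higher without overlap on unscaled signals.

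As levels, the miR-212-3p groups overlapped. Scaled to the spike-in probes instead, the AAI day 6 values still all lay above those of vehicle, and the day 4 values did not. How many of all tested miRNAs did so with that scaling was not counted, so this is not read as particular to miR-212-3p. The miR-212-3p level of vehicle kidneys was -1.13 ± 0.13 (SD, n = 5). In AAI kidneys it was -0.98 ± 0.24 on day 2, -0.79 ± 0.32 on day 4 and -0.48 ± 0.37 on day 6. Its order followed the days, vehicle, day 2, day 4 and day 6. The steps between neighbours were 0.15, 0.19 and 0.31, and only the last exceeded the SD within groups, 0.28. Above the highest vehicle array, at -0.96, lay 3 of 5 arrays at day 2, 4 of 5 at day 4 and 4 of 5 at day 6.

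The spread of miR-212-3p was wider in the AAI groups than in vehicle, with single arrays far from the others. AAI day 6 arrays 3 and 2 had the highest levels, -0.03 and -0.25, and array 1 of that group the lowest of it, -0.98, just under the highest vehicle level. AAI day 4 array 2, at -1.33, and AAI day 2 array 2, at -1.33, lay below all 5 vehicle arrays.

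**Figure D1:**
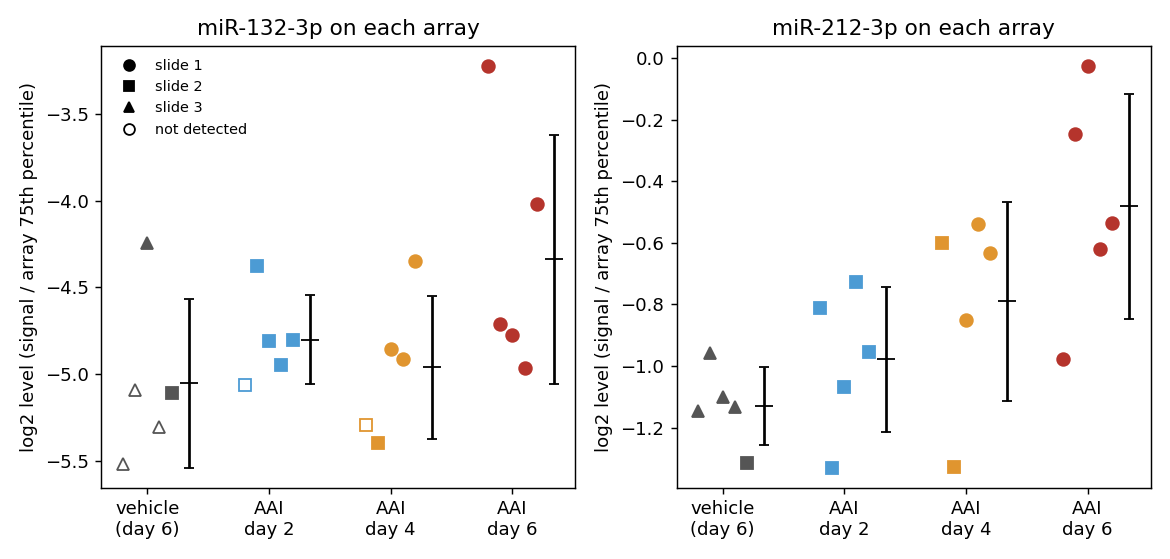
Level of miR-132-3p (left) and miR-212-3p (right) on each of the 20 arrays, as log2 of signal over the array's 75th percentile, by group. Symbols give the slide, open symbols arrays where the miRNA was not detected, and bars the group mean ± SD (n = 5). The highest miR-132-3p point is AAI day 6 array 1, at -3.22, and miR-212-3p means climb from -1.13 in vehicle to -0.48 at day 6.

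Differences from vehicle are given as log2 differences of group means with the standard error from each miRNA's own residual spread. For miR-132-3p the difference was 0.25 ± 0.31 at AAI day 2, a fold of 1.19 with a 95% interval of 0.751 to 1.89. It was 0.09 ± 0.31 at day 4 (1.07-fold, interval 0.672 to 1.69). At day 6 it was 0.72 ± 0.31 (1.64-fold, interval 1.03 to 2.61). That interval uses the spread pooled over the 4 groups and depended on the setting. On the log2 scale it was -0.18 to 1.61 in a fit of only these 2 groups and -0.23 to 1.37 with quantile normalization. Unscaled it was 0.21 to 1.91, and with spike-in scaling 0.16 to 1.82. The estimate at day 6 was the highest of the 3 and also the one with the widest spread between arrays.

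For miR-212-3p the difference was 0.15 ± 0.18 at AAI day 2, a fold of 1.11 with a 95% interval of 0.858 to 1.44. At day 4 it was 0.34 ± 0.18 (1.27-fold, interval 0.977 to 1.64), and at day 6 it was 0.65 ± 0.18 (1.57-fold, interval 1.21 to 2.03). The estimates of the members at day 6 thus lay within one standard error of each other. The members' intervals overlapped on each day.

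Between AAI days the miR-132-3p difference was -0.16 ± 0.31 from day 2 to day 4 and 0.62 ± 0.31 from day 4 to day 6. For miR-212-3p these were 0.19 ± 0.18 and 0.31 ± 0.18. From day 2 to day 6 miR-132-3p differed by 0.46 ± 0.31 and miR-212-3p by 0.50 ± 0.18. The estimates of miR-212-3p were positive at each step, and that of miR-132-3p changed sign between them. All these contrasts share the day groups, so they are not independent.

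With the main scaling, no member's levels were free of overlap with vehicle on any day. Of tested miRNAs, 4.2%, 6.87% and 23.3% were free of it at day 2, 4 and 6, in either direction. With spike-in scaling, all 5 miR-212-3p values at AAI day 6 lay above the highest vehicle value. At day 2 and at day 4, 4 of 5 did, and miR-132-3p overlapped vehicle on each day. The share of all tested miRNAs free of overlap with spike-in scaling was not counted. Nothing is read from these overlaps, since the pair was chosen with these contrasts known. Over all tested miRNAs the median difference at day 6 was -0.11 with the main scaling and 0.18 with spike-in scaling.

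**Figure D2:**
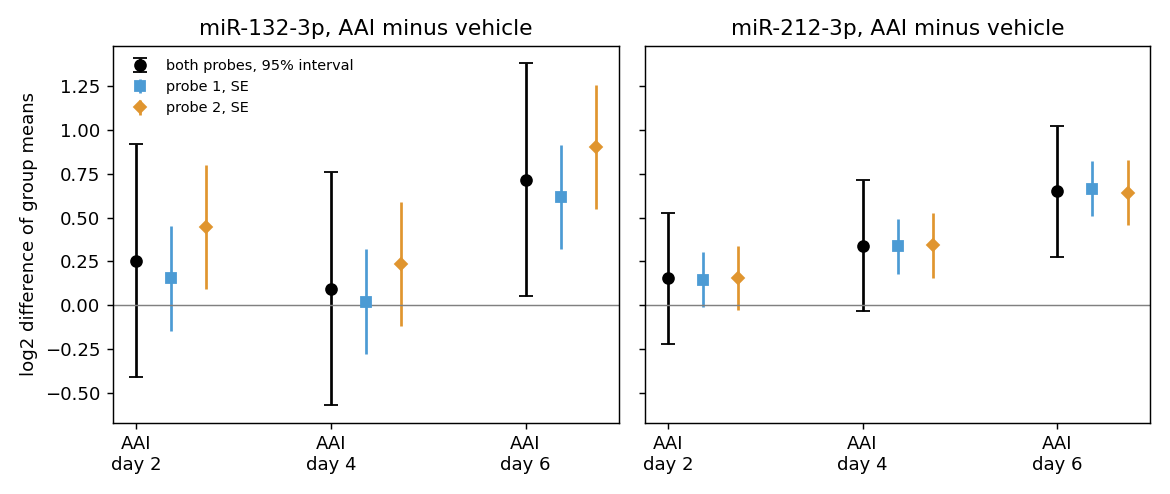
Log2 difference of group means, AAI minus vehicle, for miR-132-3p (left) and miR-212-3p (right) on each day. Black points with 95% intervals use both probes together, and coloured points with standard errors show the probes singly (n = 5 arrays per group). At day 6 the point is 0.72 for miR-132-3p and 0.65 for miR-212-3p, and the probes of miR-132-3p lie farther apart than those of miR-212-3p.

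The probes of a member gave like answers. For miR-132-3p at AAI day 6 the longer probe gave 0.62 ± 0.30 and the shorter 0.90 ± 0.35, and over 20 arrays their log2 signals correlated at r = 0.952. For miR-212-3p the shorter probe gave 0.66 ± 0.16 and the longer 0.64 ± 0.18, with r = 0.983. The probes of a miRNA share the array and most of their bases, so they are not independent measurements.

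Although the pair is known from one transcript, the scaled levels of its members correlated weakly from array to array. miR-132-3p lay near the limit of the arrays, and the part of its measurement error in this correlation was not tested. Over the 20 arrays, which share 3 slides and one scaling, their levels correlated at r = 0.13 (rank correlation 0.31). Among the 261 other tested miRNAs, each member ranked 79th in likeness to its partner. After the group means were taken off, r was -0.31, and -0.06 without AAI day 6 array 1. On unscaled signals r was 0.53, and those signals also carry the overall brightness of each array.

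The lowest and the highest difference between the members within an array were both on AAI day 6 arrays. Without arrays 1 and 5 of that group, the 2 farthest from the miR-132-3p median, the members correlated at r = 0.19. That value keeps array 3, so it does not leave out both extremes of the difference. Array 1 of AAI day 6 had the highest miR-132-3p level (-3.22) and the lowest miR-212-3p level (-0.98) of the 5. Array 3 had the highest miR-212-3p level (-0.03) and a miR-132-3p level of -4.77. Within an array, the miR-212-3p level minus the miR-132-3p level is used only to compare arrays, since probes differ in brightness. For vehicle that difference was 3.92 ± 0.48 (SD, n = 5), and on days 2, 4 and 6 of AAI it was 3.82 ± 0.49, 4.17 ± 0.37 and 3.86 ± 1.02. The day 6 arrays ran from 2.25 on array 1 to 4.75 on array 3, the lowest and the highest of all 20 arrays, while the group means differed by less than the spread within groups.

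**Figure D3:**
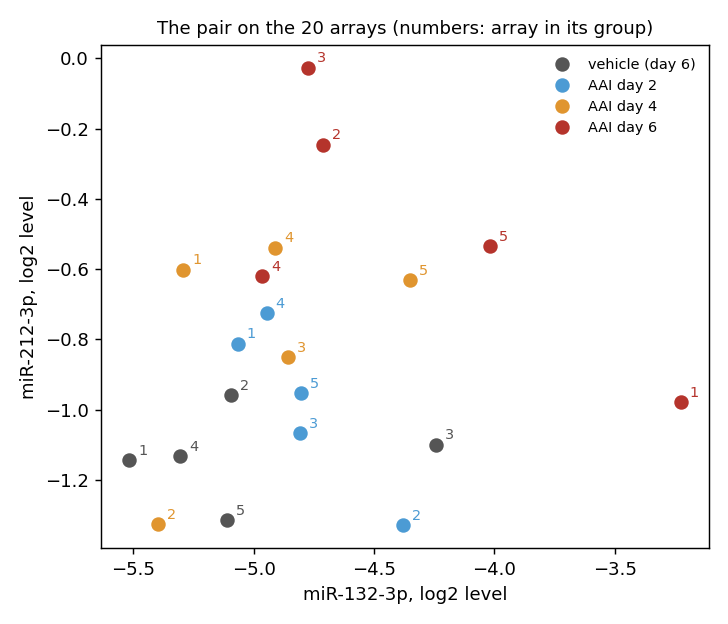
Log2 level of miR-212-3p against that of miR-132-3p on the 20 arrays, coloured by group, with the array's number in its group beside each point. The points form no line (r = 0.13). AAI day 6 array 1 lies farthest to the right and array 3 of that group highest.

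The arrays sat on 3 slides that do not cross the groups evenly. All 5 AAI day 6 arrays were on slide 1 and all 5 day 2 arrays on slide 2. Vehicle arrays were on slide 3 except array 5, on slide 2, so no slide held both vehicle and day 6. Only day 4 was split between slides 1 and 2, and both members read higher on slide 1. For miR-132-3p the day 4 mean was -4.71 on slide 1 (3 arrays) and -5.35 on slide 2 (2 arrays). For miR-212-3p it was -0.67 and -0.96, with AAI day 4 array 2 among the slide 2 arrays.

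With slide as a fixed block the day 6 difference from vehicle was 0.14 ± 0.71 for miR-132-3p and 0.54 ± 0.40 for miR-212-3p. With slide as a random block these were 0.49 ± 0.47 and 0.59 ± 0.26. On slide 2 alone, which held 1 vehicle array, miR-132-3p was 0.31 higher at day 2 and lower at day 4, at -0.23. There miR-212-3p was 0.34 and 0.35 higher. Each of these differences rests on that single vehicle array, whose miR-212-3p level, -1.32, was the lowest of the vehicle group. The part of the slide in the members' differences cannot be told apart from that of AAI and its day with this layout.

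Array brightness moved with the miR-132-3p level more than with that of miR-212-3p. The 75th percentile signal was 309 to 592 over the 20 arrays, and it correlated with the miR-132-3p level at r = 0.42 and with the miR-212-3p level at r = 0.04. Vehicle arrays ran from 312 to 452, and those of AAI days 2, 4 and 6 from 384 to 592, from 369 to 558 and from 309 to 535. Scaling divides by it. Without scaling the median over tested miRNAs at day 6 was 0.26 instead of -0.11, and the members' day 6 differences were 1.06 for miR-132-3p and 1.02 for miR-212-3p. Its part in the members' differences was not tested.

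Single arrays weighed differently on the 2 members. Without AAI day 6 array 1 the miR-132-3p difference at day 6 was 0.44 ± 0.27, with an interval from -0.13 to 1.01, and that of miR-212-3p was 0.77 ± 0.17. Without vehicle array 3 the miR-132-3p difference was 0.92 ± 0.31. Leaving out each array in turn gave 0.44 to 0.92 for miR-132-3p and 0.54 to 0.77 for miR-212-3p. AAI day 4 array 2, with 328 miRNAs detected where the others had 250 to 308, lowered the day 4 estimate of both members. Without it the difference was 0.20 ± 0.33 for miR-132-3p and 0.47 ± 0.16 for miR-212-3p.

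**Figure D4:**
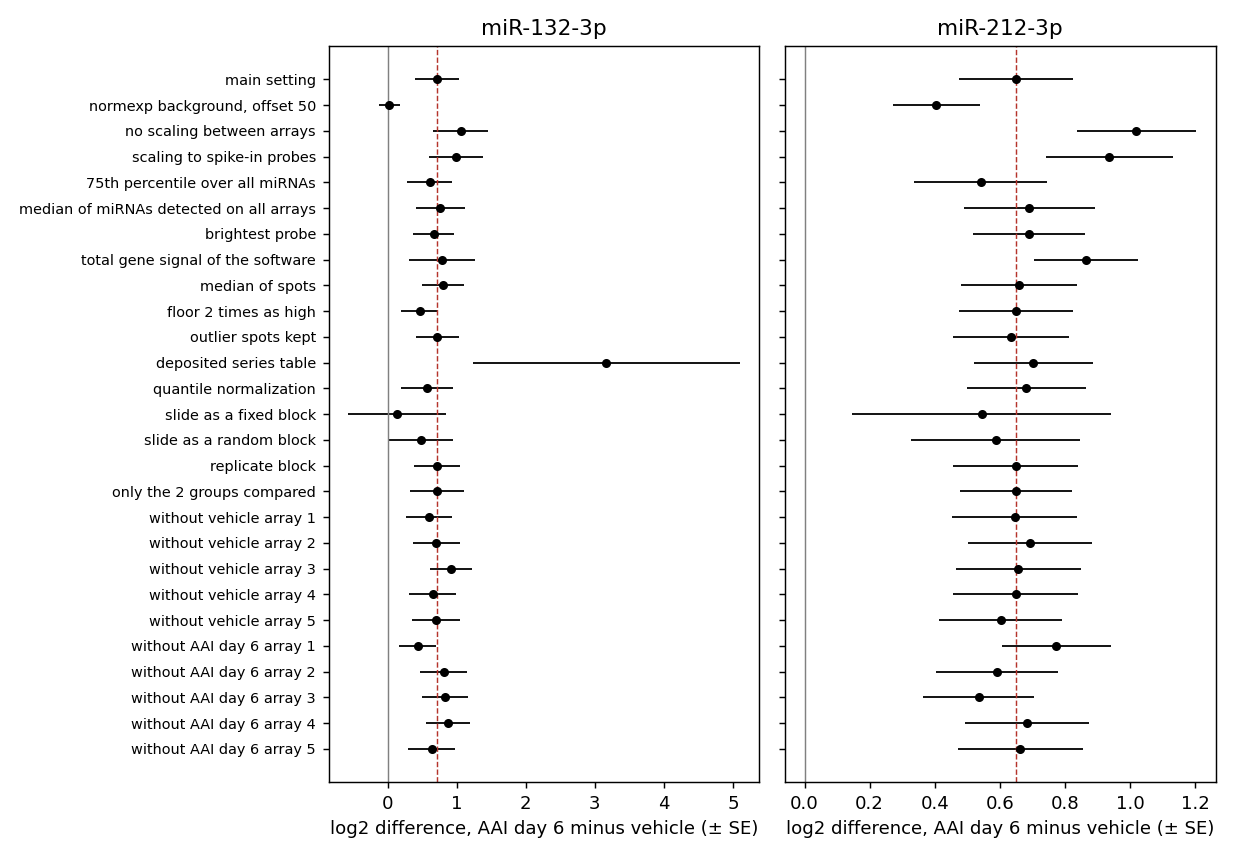
Log2 difference, AAI day 6 minus vehicle (± SE), for miR-132-3p (left) and miR-212-3p (right) under each processing alternative and with each array left out; the axes of the panels differ in range. The dashed line marks the value with the main setting, 0.72 and 0.65. miR-132-3p runs from 0.023 with another background correction to 3.17 with the deposited series table, and miR-212-3p from 0.40 to 1.02.

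The tested miRNAs whose levels followed each member most closely over the 20 arrays were different for the 2 members. For miR-132-3p they were miR-146b-5p (r = 0.83), miR-34c-5p (0.83), miR-18a-5p (0.82), miR-34b-5p (0.80) and miR-322-5p (0.78). The median correlation of tested miRNAs with miR-132-3p was -0.09. With group means taken off, these 5 stayed between 0.73 and 0.81. AAI day 6 array 1 weighed on them: without it their r was 0.66 to 0.74, and 1 of the 5, miR-18a-5p, was still among the 5 highest.

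For miR-212-3p the closest were miR-551b-5p (r = 0.81), miR-1839-3p (0.72), miR-341 (0.64), miR-423-5p (0.61) and miR-21-3p, the passenger arm of the injury miRNA miR-21 (0.60). The median over tested miRNAs was -0.05. With group means taken off, miR-551b-5p and miR-1839-3p stood at 0.83 and 0.74, and miR-21-3p at 0.09. Without AAI day 6 array 3, 2 of the 5 were still among the 5 highest, miR-1839-3p (0.79) and miR-551b-5p (0.76). All these correlations share the arrays, slides and scaling with the member.

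Around the locus, the array held 3 other miRNAs within 500 kb of the pair by rn4 probe coordinates, all about 302 kb away. miR-22-3p differed from vehicle at AAI day 6 by -0.26 ± 0.11 (adjusted p = 0.0956, limma) and miR-22-5p by -0.22 ± 0.08 (adjusted p = 0.0672, limma). These signs were not kept in 2 other scalings: unscaled the differences were 0.11 and 0.15, and with spike-in scaling 0.026 and 0.07. miR-6326 was detected on 3 arrays and was not tested. In limma's test with Benjamini-Hochberg adjustment over the 262 tested miRNAs, a call being an adjusted p under 0.05, 0 of the 2 tested neighbours were called on any day. Of all tested miRNAs, 1.15% were called at day 2, 3.44% at day 4 and 26% at day 6, 7.25% being higher at day 6.

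Other miRNAs known from neurons, where the pair has been studied most, were called about as often as miRNAs in general. Of 14 on the list, 9 were tested, and at AAI day 6 limma called 0 higher and 2 lower, where 26% of all tested miRNAs were called, with a median difference of -0.04 against -0.11 over all tested miRNAs. The 2 that fell were miR-128-3p (-0.30 ± 0.09, adjusted p = 0.0237, limma) and miR-218a-5p (-0.47 ± 0.13, adjusted p = 0.0128, limma). Without scaling miR-128-3p stood at 0.07, and its call was lost without vehicle array 1, vehicle array 2 or AAI day 6 array 3 (adjusted p 0.0559 to 0.0720, limma). Neither was called without scaling or with spike-in scaling (adjusted p 0.434 to 0.944, limma). miR-218a-5p stood at -0.10 without scaling and also lost its call with slide as a fixed block (adjusted p = 0.0701, limma). Both arms of miR-9a, a miRNA of neural progenitors, were detected on all 20 arrays and differed by 0.36 ± 0.25 and 0.33 ± 0.27 at day 6.

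The list of miRNAs of tissue remodelling, the other setting in which the pair is known, was also near the general share of calls. Of 12, 10 were tested, and at AAI day 6 limma called 2 higher and 1 lower, against 26% called and 7.25% called higher among all tested miRNAs, with a median of -0.10. miR-21-5p, which is induced in injured kidney, rose by 1.11 ± 0.26 (adjusted p = 0.00275, limma). miR-29b-3p, which represses collagen genes, rose by 0.44 ± 0.13 (adjusted p = 0.0128, limma). With slide as a fixed block their differences were 0.60 and 0.14, and neither was called (adjusted p = 0.417 and 0.704, limma). miR-214-3p, a stromal miRNA, fell by 0.25 ± 0.07 (adjusted p = 0.0302, limma). It stood at 0.12 without scaling and 0.038 with spike-in scaling. Its call did not survive the removal of any one of vehicle arrays 2, 4 and 5 and AAI day 6 arrays 4 and 5 (adjusted p 0.0572 to 0.0876, limma). At day 2 and day 4, 0 members of either list were called by limma, and 29 and 58 of the 262 tested miRNAs had an unadjusted p under 0.05.

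The labels give kidney as the tissue, and detection of markers was not a test of it. The 5 stromal and 2 endothelial markers on the array were detected on all 20 arrays. All 5 tubule miRNAs on the list were detected on every array, and at AAI day 6 limma called 3 of them lower, miR-192-5p, miR-194-5p and miR-204-5p, with differences of -0.56, -0.63 and -0.42, against 26% called among all tested miRNAs. Without scaling these were -0.19, -0.26 and -0.05 and none was called (adjusted p 0.221 to 0.814, limma), nor was any with spike-in scaling (0.102 to 0.574). The call of miR-204-5p was lost with slide as a fixed block (adjusted p = 0.0573, limma). Of the 5 neuron markers, miR-137-3p and miR-153-3p were detected on no array, miR-124-3p, the most neuron-specific of them, on 3 and both miR-9a arms on 20. Their summed scaled signal was 0.120 to 0.253 in vehicle and 0.149 to 0.263 at day 6. The red-cell miRNA miR-451-5p fell by 2.73 ± 0.36 at day 6 (adjusted p = 1.85e-05, limma), and the summed red-cell signal was 0.407 to 1.34 in vehicle and 0.0556 to 0.202 at day 6. Of 4 leukocyte, 2 endothelial and 5 stromal markers on the array, limma called 0, 0 and 1 at day 6, again beside 26% of all tested miRNAs, the 1 being miR-214-3p, lower. The summed leukocyte signal was 1.71 to 1.99 in vehicle and 1.36 to 2.06 at day 6. The part of changed cell content in the members' differences was not tested.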

How the data were processed

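Kidney RNA (mirVana extraction, Agilent miRNA labelling kit, per the labels' protocols) was read on 20 one-colour arrays. Per the file headers, Agilent Feature Extraction 10.7.1.1 was used, and the deposited spot values are background-subtracted fluorescence intensity, unscaled between arrays. Deposited flags (detected, outlier, well above background) take the values 0 and 1. Log2 values deposited for the whole series served as an alternative; how they were made is not given in the sources used here. Probe coordinates are rn4, per the file headers, and mature sequences are from RefSeq GRCr8.

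The pair and all lists were chosen with earlier results of these data known. Outlier spots (373 to 559 per array) were dropped; none was saturated. Spots were averaged per probe, probes summed, and signals divided by the array's 75th percentile over the 231 miRNAs detected on all arrays. A floor of 0.0163 was set (1st percentile of detected signals; 45 of 5240 tested values and 0 member values lay at it), then log2 taken. A 4-group fit in limma 3.58.1 (R 4.3.3, version 1.17.8 of data.table, pandas 2.3.3, numpy 2.4.6), with 16 residual and 2.28 prior degrees of freedom, tested the 262 miRNAs detected on all 5 arrays of a group, of 357 detected on any array, two-sided. A call is a Benjamini-Hochberg adjusted p under 0.05. Member errors use their own unmoderated residual spread. Scripts were tested on simulated data. The number of arrays limits precision. The 5 miRNAs with the highest Pearson correlation with each member, and any list member, could be named. Alternatives covered background, scaling, probe summary, floor, filter, variance model, slide, replicate number and each array left out. Likeness without single arrays and overlap under other scalings were added after seeing the data.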

Additional observations from a re-analysis of the deposited data

How the results depend on the processing

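The miR-212-3p difference at AAI day 6 kept its sign in all 16 alternatives and 10 left-out arrays that gave a value, from 0.40 to 1.02, and that of miR-132-3p in 16 and 10, from 0.023 to 3.17. At day 4 miR-132-3p was positive in 13 of 17 alternatives and 8 of 10 left-out arrays. Normexp, another background correction, adds an offset of 50 to every spot before probes are summed, above any single-probe miR-132-3p signal (at most 33.7). With it miR-132-3p differed from vehicle by -0.16, -0.08 and 0.023 at day 2, 4 and 6, and by 0.11 from day 4 to 6. The part of the offset in these values was not tested. In the deposited series table, where undetected miRNAs share 1 value, miR-132-3p differed by 2.45, 1.21 and 3.17 at day 2, 4 and 6, by -1.24 from day 2 to 4 and by 1.95 from day 4 to 6. With slide as a fixed block miR-132-3p differed by 0.14 at day 6, by -0.18 from day 2 to 6, and miR-212-3p by 0.21 from day 2 to 6; the cause was not tested. Without scaling miR-212-3p differed by 0.45, 0.70 and 1.02, and by 0.94 at day 6 with spike-in scaling.

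The count of called miRNAs was 3, 9 and 68 at day 2, 4 and 6. At day 2 it was 0 with a floor 2 times as high, normexp, either slide block or only miRNAs detected on all arrays, 1 with the replicate block, 5 with median scaling or none, 7 with spike-in scaling and 9 in a fit of only the groups compared. At day 4 it was 18 unscaled, 5 for miRNAs detected on all arrays, 3 with the software's total gene signal or a random slide block, and 0 with normexp, a fixed slide block or within slides. At day 6 it was 27 with median scaling, 35 unscaled, 24 with normexp, 29 with spike-in scaling and 23 with the total gene signal. Of the calls, 27.9% were higher at day 6, against 97.1% unscaled, 93.1% with spike-in scaling, 59.3% with median scaling and 82.6% with total gene signal. At day 4, 66.7% were higher, against 100% unscaled. Leaving out single arrays gave 0 to 5 calls at day 2 (0 without AAI day 2 array 4 or vehicle array 4, 5 without AAI day 2 array 1) and 7 to 14 at day 4 (14 without AAI day 4 array 4). List and marker members called numbered 0, 0 and 9; 1 was called at day 2 in the fit of only the groups compared, and 1 at day 4 unscaled, with quantile normalization or with every miRNA detected on any array. At day 6 they were 3 with median or spike-in scaling, 4 unscaled or with total gene signal and 5 with normexp.

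Of the 5 miRNAs most like each member, the deposited series table shared 0 for miR-132-3p and 2 for miR-212-3p, rank correlation 2 and 4, and deviations from group means 4 and 2.

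Replicate numbers did not pair the arrays: same-numbered arrays deviated from their group means with a median correlation of -0.05 (-0.66 to 0.68; 11 of 30 pairs over 0.1, 3 of 20 arrays closest to their own number). With the replicate block the members' day 6 differences stayed 0.72 and 0.65.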
